A study of Mus musculus with 6 samples.

Results

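The 27 genes described here encode the enzymes of sterol synthesis and the proteins that control it, and were taken by symbol from a table of 24421 gene rows. They comprise 8 genes of the mevalonate steps, 11 of the squalene and later sterol steps, 6 of the SREBP control machinery, and Stard4 and Soat1, which move and esterify cholesterol. Their messenger RNA was measured by RNA sequencing in 3 mouse pancreatic ductal adenocarcinoma lines, 2838c3, 6419c5 and 6499c4. Before RNA was taken, each line spent 16 hours in DMSO alone (vehicle) or in 250 nM G-1, which activates GPER, a membrane receptor for oestrogen coupled to G proteins, with 1 library per line and treatment and 6 in all. All cells were at passages 15 to 20 in medium with 5% fetal bovine serum, which itself carries lipoprotein cholesterol. The labels give no genotype, strain or age of the mice behind the lines and no separate cultures within a line. A difference between lines therefore rests on the vehicle and the G-1 library of each line, and a difference under G-1 on the 3 lines.

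Cholesterol synthesis starts from acetyl-CoA. Acat2 and Hmgcs1 build the HMG-CoA from which mevalonate is made, Mvk, Pmvk and Mvd turn mevalonate into isopentenyl diphosphate, and Idi1, Fdps and Ggps1 handle the isoprenoid units. Fdft1 commits farnesyl diphosphate to squalene, Sqle and Lss close the sterol ring, and Cyp51, Tm7sf2, Msmo1, Nsdhl, Hsd17b7, Ebp, Sc5d and Dhcr7 trim lanosterol towards cholesterol. The transcription factor SREBP2, encoded by Srebf2, is held in the endoplasmic reticulum by Scap and the Insig proteins when sterol is plentiful. When sterol is scarce, Scap carries it to the Golgi, where the proteases encoded by Mbtps1 and Mbtps2 release its active part, which binds sterol regulatory elements in promoters of these genes.

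Promoter sequence is shown for the 4 members with a match to a sterol regulatory element before a RefSeq start site, because SREBP2 acts through such elements. RefSeq promoter windows (GRCm38.p6, 250 bases before to 50 after a start) matched 23 of the 27 members by symbol. Fdps, Fdft1, Sqle and Stard4 had no entry. Both strands were searched, and capitals mark TCACNCNA, a loose form of the element that includes every match to the stricter TCACNCCAC. The Hmgcs1 stretch is chr13:119690101-119690350, plus strand, and the Srebf2 stretch is chr15:82147019-82147180, plus strand, ending where an annotated first exon begins. For Msmo1 (chr8:64733737-64733766, minus strand) and Nsdhl (chrX:72918305-72918334, plus strand) the match lay in an annotated exon, of Cetn2 on the other strand in the case of Nsdhl, and 30 bases are shown. The Msmo1 match lay within the GENCODE M21 span of Msmo1 itself (chr8:64718139-64733792), and so after its outermost annotated start.
Hmgcs1: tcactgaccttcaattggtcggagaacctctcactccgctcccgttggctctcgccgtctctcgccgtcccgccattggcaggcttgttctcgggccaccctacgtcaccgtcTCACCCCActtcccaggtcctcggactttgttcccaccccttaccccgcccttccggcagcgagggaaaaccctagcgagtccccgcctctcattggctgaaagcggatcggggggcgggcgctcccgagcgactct
Srebf2: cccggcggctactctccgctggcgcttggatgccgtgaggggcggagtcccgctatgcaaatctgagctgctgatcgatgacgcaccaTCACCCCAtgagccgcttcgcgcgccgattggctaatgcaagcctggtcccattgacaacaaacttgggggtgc
Msmo1: tctcactattcTCACTCCAtccgcgcagcc
Nsdhl: agcacttaccaTCACCCAAcggactctgcc

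Relative to the RefSeq start, the matches began at base -137 in Hmgcs1, -162 in Srebf2, -177 in Msmo1 and -205 in Nsdhl. The loose element was found in 4 of the 23 members (17.4%), in 11.6% of the 8237 tested genes with a window and in 11% of all 32851 windows. The stricter TCACNCCAC was found in Hmgcs1 alone among the members (4.35%), in 1.38% of the tested genes and in 1.24% of windows. CCAAT, the letters bound by NF-Y, a usual partner of SREBP2, stood in 19 of the 23 members (82.6%) against 43.2% of the tested genes and 37.4% of windows. GGGCGG, a box bound by Sp1, stood in 20 (87%) against 72% and 35.7%. Each match is a description of letters and not a shown binding site.

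Reads in genes, recovered from the deposited values, numbered 5455990 to 8890821 per library, with the fewest in the G-1 library of 6419c5. A count of 0 allows up to 3 reads, or 0.337 to 0.55 RPM (reads scaled to the reads in genes). The labelled cell type was checked against markers. All 8 ductal epithelial markers had a mean of at least 1 FPKM (reads divided by gene length and scaled between libraries) and summed to 3534 to 6102 FPKM. All 4 acinar markers, with Prss1 and Ptf1a among them, were at 0. The 5 immune markers summed to 0 to 0.507 FPKM, the 4 endothelial markers to 0.0665 to 1.82 and the 5 fibroblast markers to 0.405 to 1.11 (Col1a2 and Dcn at 0).

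All 27 members passed the filter of a mean of 1 FPKM, as did 10748 genes in all. Levels in FPKM are per length, but the gene lengths behind them are not given, and the exonic bases of GENCODE M21 were 0.634 (Mvd) to 2.14 times (Msmo1) that length, relative to Srebf2 at 1.00. Ranks between genes therefore depend on the lengths used. On the deposited scale the highest mean levels were those of the middle enzymes Msmo1, at a mean of 301 FPKM in 2838c3, 119 in 6419c5 and 92.3 in 6499c4, and Fdps, at 270, 134 and 91.0. Srebf2 itself was at 126, 77.5 and 83.5 FPKM and Sqle, the squalene epoxidase, at 97.7, 65.6 and 65.0. The lowest 4 on that scale were Idi1, at 13.6, 4.45 and 4.86 FPKM, Tm7sf2, at 15.4, 4.85 and 12.8, Insig2, at 10.2, 12.1 and 12.1, and Ggps1, which diverts farnesyl units to protein prenylation, at 14.2, 8.63 and 9.60. On GENCODE exonic length the means over the 6 libraries were 102 for Cyp51, 95.5 for Srebf2, 90.2 for Fdps and 79.9 for Msmo1, so the top order turned, while Tm7sf2 (5.82), Ggps1 (8.50) and Idi1 (9.81) stayed among the lowest 4 and Insig2 (15.2) did not. Ratios between libraries within a gene do not depend on its length. Differences in log2(FPKM + 1), used below, depend on it through the added 1.

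**Figure D1:**
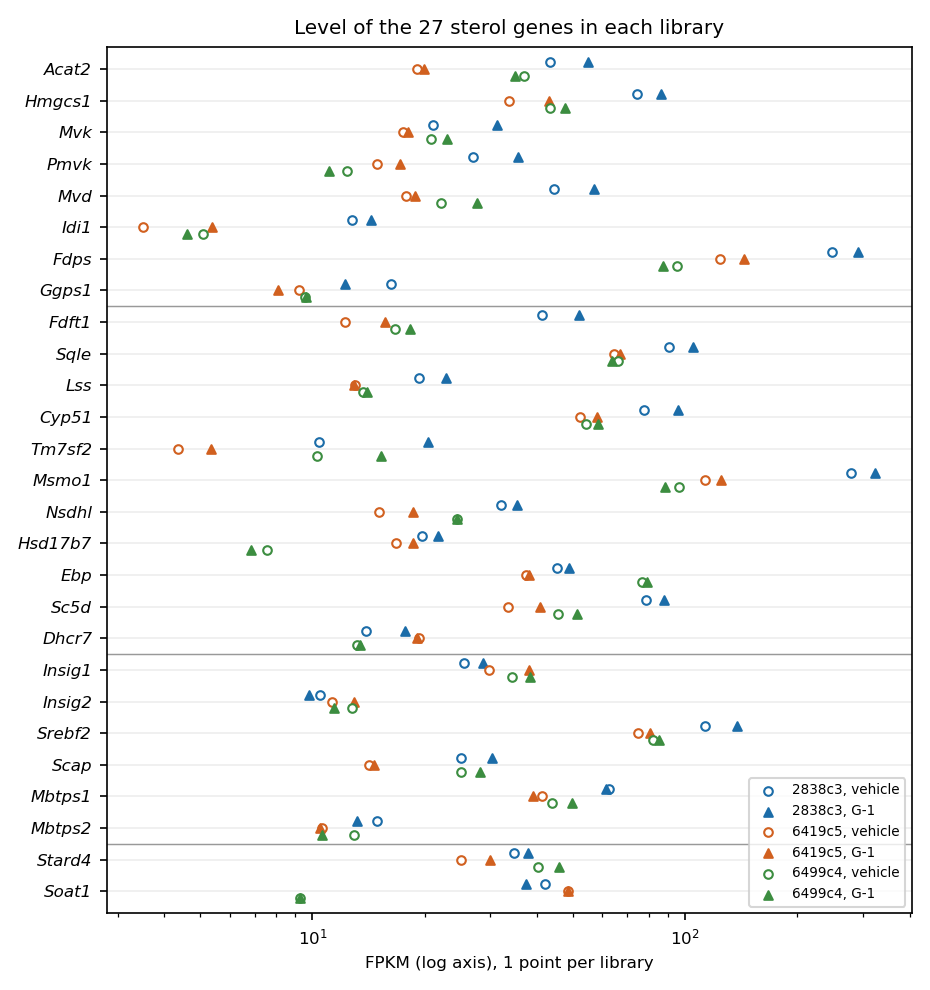
FPKM of each of the 27 genes on a log axis, 1 point per library, with open circles for vehicle, filled triangles for G-1 and a colour for each line, ordered by role. Most of the enzymes lie to the right in 2838c3, while Soat1 is low in 6499c4 alone and Ebp is high there.

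Far more members passed the test between lines than under G-1, as did far more of all genes tested. Sterol enzymes were highest in 2838c3: both of its libraries lay above the other 4 for 15 of the 19 enzymes and 18 of all 27 members, against 26.0% of the genes tested. The libraries of 6419c5 lay below the other 4 for 15 members (18.5% of the genes tested) and those of 6499c4 for 6 (23.1%). The mevalonate genes summed in 2838c3 to 488 FPKM with vehicle and 583 with G-1, in 6419c5 to 240 and 274, and in 6499c4 to 245 and 245. The squalene and later genes summed to 707 and 831, 381 and 418, and 425 and 433. These sums were higher in 2838c3 than in either other line under both treatments. Single genes weighed heavily in them: in 2838c3 Fdps gave 248 and 291 FPKM of the mevalonate sums, and Msmo1 278 and 324 of the later ones. In 6499c4 Fdps read 94.9 with vehicle and 87.0 with G-1.

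Between 6419c5 and 2838c3, limma on log2(FPKM + 1) with Benjamini-Hochberg adjustment found 22 of the 27 members lower in 6419c5 and 2 higher at an adjusted p under 0.05. The background was 25.3% of all genes tested lower and 26.2% higher. The median difference of the members was -0.66, against 0.00 for all genes. All 8 mevalonate genes were lower, as were 9 of the 11 later enzymes, the exceptions being Hsd17b7 and Dhcr7. Fdft1, the squalene synthase, read 41.3 FPKM (vehicle) and 51.9 (G-1) in 2838c3 against 12.2 and 15.7 in 6419c5, a log2 difference of -1.67 (SE 0.09, adjusted p = 1.88e-05). Idi1, the isopentenyl diphosphate isomerase, read 12.8 and 14.4 against 3.52 and 5.38 FPKM (-1.44, SE 0.16, adjusted p = 0.000366). In both genes the lines did not overlap.

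Tm7sf2, a sterol reductase, read 10.4 and 20.4 FPKM in 2838c3 and 4.35 and 5.34 in 6419c5 (log2 difference -1.42, SE 0.16, adjusted p = 0.000357). Mvd, the mevalonate diphosphate decarboxylase, read 44.6 and 57.1 against 17.8 and 18.8 FPKM (-1.42, SE 0.10, adjusted p = 4.36e-05). Against this direction stood Insig1, the inducible anchor of Scap, at 25.5 and 28.7 FPKM in 2838c3 and 29.8 and 38.2 in 6419c5. Its log2 difference was 0.31 (SE 0.09, adjusted p = 0.0194). Soat1, the enzyme that esterifies cholesterol for storage, read 42.2 and 37.4 against 48.4 and 48.4 FPKM (0.28, SE 0.09, adjusted p = 0.0319). In limma without the treatment covariate the Insig1 call was lost (adjusted p = 0.0843), and without the variance trend that of Soat1 (adjusted p = 0.063). Both higher calls were lost without the vehicle library of 2838c3, where the adjusted p was 0.0607 for Insig1 and 0.0562 for Soat1. They were also lost without its G-1 library (0.136 and 0.264) and without the G-1 library of 6419c5 (0.153 and 0.184), and that of Soat1 without the vehicle library of 6419c5 (0.1).

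Between 6499c4 and 2838c3, 18 members were lower in 6499c4 and 3 higher, against 28.9% and 26.6% of all genes tested, with a median difference of -0.57 (all genes, -0.01). Of the mevalonate genes 7 of 8 were lower, with Mvk not passing (adjusted p = 0.176), and of the later enzymes 8 of 11. Soat1 (chr1:156424525-156474331, minus strand, GRCm38, GENCODE M21) differed most, at 9.24 and 9.28 FPKM in 6499c4 against 42.2 and 37.4, a log2 difference of -1.99 (SE 0.09, adjusted p = 3.9e-06). Msmo1, the C4-methyl oxidase, read 96.3 and 88.3 FPKM against 278 and 324 (-1.69, SE 0.09, adjusted p = 1.09e-05). Fdps, the farnesyl diphosphate synthase, read 94.9 and 87.0 against 248 and 291 (-1.55, SE 0.10, adjusted p = 2.07e-05). The libraries of these genes did not overlap between the lines.

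Hsd17b7, the 3-ketosteroid reductase that acts with Msmo1 and Nsdhl in removing the C4 methyl groups, read 7.57 and 6.84 FPKM in 6499c4 against 19.7 and 21.7 in 2838c3 (log2 difference -1.41, SE 0.11, adjusted p = 5.17e-05). The sterol isomerase Ebp went the other way, at 76.8 and 78.9 FPKM against 45.3 and 48.8 (0.72, SE 0.07, adjusted p = 0.000172). Insig1 was also higher, at 34.3 and 38.4 against 25.5 and 28.7 FPKM (0.41, SE 0.09, adjusted p = 0.00515). Stard4, a soluble cholesterol carrier, read 40.3 and 46.0 against 34.8 and 37.9 FPKM (0.24, SE 0.08, adjusted p = 0.0342). The Stard4 call was lost without any 1 of the 4 libraries of these lines: the adjusted p was 0.0853 without the vehicle and 0.227 without the G-1 library of 2838c3, and 0.12 and 0.124 without those of 6499c4. It was also lost with column-total scaling (0.0527), without the variance trend (0.0733) and without the treatment covariate (0.113).

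Between 6499c4 and 6419c5 the members went both ways. In 6499c4, 10 were higher and 6 lower, against 21.3% and 23.7% of all genes tested, and the median difference was 0.13 (all genes, 0.01). Tm7sf2 was higher in 6499c4, at 10.3 and 15.3 FPKM against 4.35 and 5.34 (log2 difference 1.22, SE 0.16, adjusted p = 0.000828). Ebp was higher too, at 76.8 and 78.9 FPKM against 37.5 and 38.1 (1.02, SE 0.07, adjusted p = 5.22e-05). Acat2, the cytosolic thiolase of the opening step, read 37.0 and 34.9 against 19.1 and 19.9 (0.85, SE 0.11, adjusted p = 0.000717), and Scap read 25.0 and 28.2 against 14.2 and 14.6 (0.84, SE 0.09, adjusted p = 0.000389). Scap thus separated 6419c5 from both other lines, since 6499c4 and 2838c3 differed by only -0.05 (SE 0.09, adjusted p = 0.654).

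Soat1 was lower in 6499c4 than in 6419c5, at 9.24 and 9.28 FPKM against 48.4 and 48.4 (log2 difference -2.27, SE 0.09, adjusted p = 3.47e-06). Hsd17b7 read 7.57 and 6.84 against 16.8 and 18.6 FPKM (-1.19, SE 0.11, adjusted p = 0.000171) and Fdps 94.9 and 87.0 against 124 and 144 (-0.55, SE 0.10, adjusted p = 0.00345). Dhcr7, the reductase that makes cholesterol in the final step of one branch, read 13.2 and 13.4 against 19.3 and 19.1 FPKM (-0.50, SE 0.11, adjusted p = 0.0103). Without the G-1 library of 6419c5 the adjusted p of Fdps was 0.0646. That of Dhcr7 was 0.109 without the vehicle library of 6419c5 and 0.0739 without the G-1 library of 6499c4. The number of members called lower fell from 6 to 3 without either library of 6419c5 or without the G-1 library of 6499c4.

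**Figure D2:**
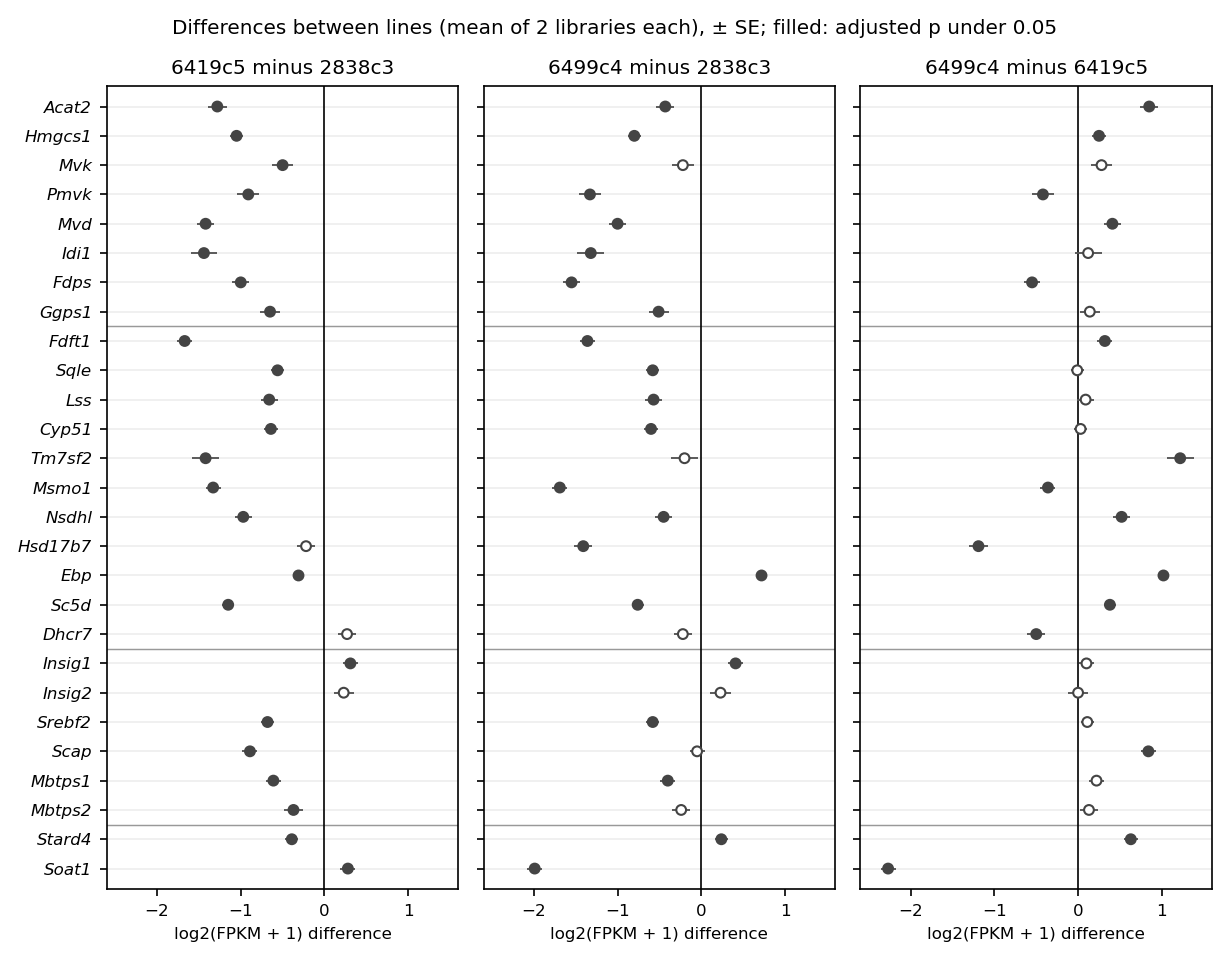
Differences in log2(FPKM + 1) between each pair of lines for the 27 genes, with bars of 1 SE from limma and filled points at an adjusted p under 0.05. Most points lie left of 0 in both comparisons with 2838c3, and Soat1 lies farthest left in both comparisons with 6499c4.

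Hmgcs1, Pmvk, Ggps1, Cyp51, Lss, Sqle, Nsdhl, Sc5d, Srebf2 and the protease gene Mbtps1 were among the genes not given in full for the pairs of lines. Each was lower in both 6419c5 and 6499c4 than in 2838c3. Their log2 differences ran from -0.40 (Mbtps1 in 6499c4, adjusted p = 0.00632) to -1.33 (Pmvk in 6499c4, adjusted p = 0.000159). For Srebf2 the differences were -0.68 in 6419c5 (SE 0.08, adjusted p = 0.000468) and -0.58 in 6499c4 (SE 0.08, adjusted p = 0.000834). Insig2 passed in none of the 3 pairs, with adjusted p of 0.15, 0.139 and 0.989, although Insig1, its inducible relative, was lowest in 2838c3. Line, culture and library preparation cannot be told apart.

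Under G-1, most members sat slightly above vehicle, and none passed the test. In limma with the line as a block, 0 of the 27 members reached an adjusted p under 0.05, where 0.0279% of all genes did (3 of 10748). At an unadjusted p under 0.05 there were 8 members (29.6%), each with the higher level under G-1, against 1081 genes (10.1%) over the table. The median log2 difference of the members was 0.14, against -0.01 for all genes. Of the 27 members, 13 were higher under G-1 in all 3 lines, against 15.4% of the genes tested, and Mbtps2 alone was lower in all 3, against 17.5%. The other 13 members differed in sign between lines.

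Per line, the members' median was 0.22 in 2838c3, 0.14 in 6419c5 and 0.03 in 6499c4, where the medians of all genes were -0.01, -0.00 and 0.00. At least 1.2-fold higher under G-1 were 10 members in 2838c3 (14.2% of the genes tested), 7 in 6419c5 (11.0%) and 2 in 6499c4 (16.7%). At least 1.2-fold lower were Ggps1 in 2838c3 (12.2% of genes), no member in 6419c5 (10.7%) and Mbtps2 in 6499c4 (13.9%). Both 2838c3 and 6419c5 were higher for 20 members (24.8% of genes). The count was 15 for 2838c3 with 6499c4 and 14 for 6419c5 with 6499c4. The shares of all genes for these other pairs were not counted. Leaving out 2838c3 brought the members' median to 0.05, and leaving out 6499c4 brought the count of members higher in every remaining line to 20. With 1 library per line and treatment, a difference in response between lines was not tested.

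**Figure D3:**
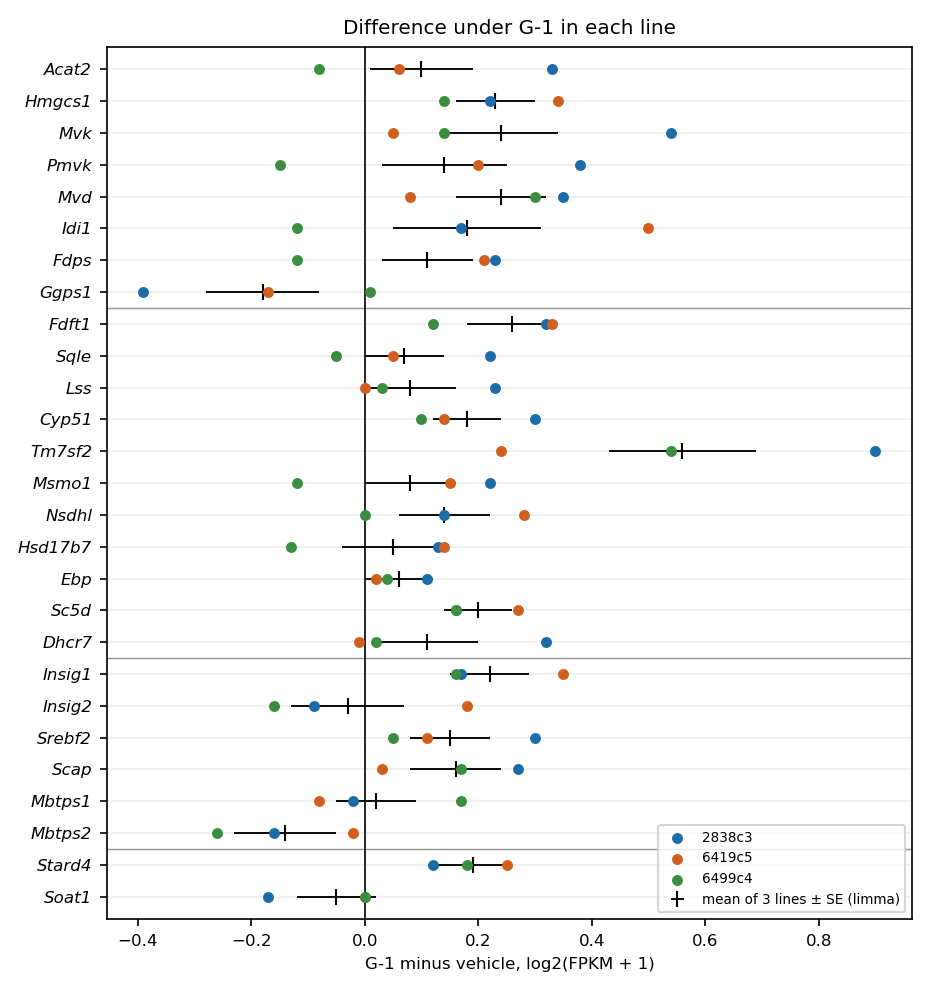
Difference between G-1 and vehicle in log2(FPKM + 1) for the 27 genes, with 1 coloured point per line and a black bar for the limma mean of the 3 lines with its SE. The points of 2838c3 and 6419c5 lie mostly right of 0, and those of 6499c4 lie on both sides.

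In the mevalonate steps the median difference under G-1 was 0.16. Hmgcs1, Mvk and Mvd, 3 of 8 genes, were higher in all 3 lines, against 15.4% of all genes tested. Hmgcs1, the HMG-CoA synthase, read in 2838c3 74.2 FPKM with vehicle and 86.4 with G-1, in 6419c5 33.7 and 43.0, and in 6499c4 43.3 and 47.7. The ratios of G-1 to vehicle were 1.16 (2271 and 2637 reads, exact 95% interval 1.1 to 1.23), 1.27 (1.16 to 1.40) and 1.1 (1.02 to 1.19). The intervals, here and below, cover counting error only. Each interval of Hmgcs1 lay above 1, and its log2 difference was 0.23 (SE 0.07, adjusted p = 0.363).

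Mvd read 44.6 and 57.1, 17.8 and 18.8, and 22.1 and 27.6 FPKM, with ratios of 1.28 (1.16 to 1.42), 1.06 (0.869 to 1.28) and 1.24 (1.08 to 1.44). Its log2 difference was 0.24 (SE 0.08, adjusted p = 0.39), and 6419c5 stood nearest to no difference. Mvk, the mevalonate kinase, had a ratio of 1.48 (1.28 to 1.71) in 2838c3 but 1.03 and 1.1 in the other lines, whose intervals spanned 1. Acat2 and Pmvk were likewise above 1 beyond counting error in 2838c3, at 1.26 (1.15 to 1.39) and 1.32 (1.14 to 1.52), and below 1 in 6499c4, at 0.944 (0.844 to 1.05) and 0.895 (0.708 to 1.13). Idi1 had its highest ratio in 6419c5, 1.53 (1.1 to 2.13), on 72 and 84 reads. With the correction for GC content and length, the log2 difference fell from 0.24 to 0.15 for Mvd and from 0.14 to 0.04 for Pmvk. It rose from 0.23 to 0.26 for Hmgcs1 and from 0.18 to 0.21 for Idi1. Acat3, a close copy of Acat2 with which reads could be shared, read 1.64 to 5.51 FPKM. Ggps1 stood against the rest, at 0.75 (0.633 to 0.887) in 2838c3, 0.875 (0.676 to 1.13) in 6419c5 and 1.00 (0.819 to 1.23) in 6499c4.

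In the squalene and later steps the median difference was 0.11. Higher in all 3 lines were 6 of the 11 genes, against 15.4% of all genes tested: Fdft1, Cyp51, Tm7sf2, Nsdhl, Ebp and Sc5d. Tm7sf2 had the greatest difference of all 27 members, at 10.4 and 20.4 FPKM (132 and 257 reads) in 2838c3, at 4.35 and 5.34 (46 and 43 reads) in 6419c5 and at 10.3 and 15.3 (139 and 182 reads) in 6499c4. The ratios were 1.95 (1.58 to 2.43), 1.23 (0.79 to 1.90) and 1.5 (1.19 to 1.88), so the 6419c5 pair could not be separated at its depth. The log2 difference was 0.56 (SE 0.13, adjusted p = 0.30).

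With limma-voom on the recovered reads, Tm7sf2 was called higher (log2 difference 0.72, SE 0.16, adjusted p = 0.0121), the only member so called, where 1.02% of all genes were. Tm7sf2 (chr19:6062821-6068373, minus strand, same build and annotation) shares 12.1% of its exonic bases with Vps51 on the same strand. Vps51 read 17.7 and 18, 15.0 and 17.7, and 18.6 and 22.3 FPKM, with ratios of 1.02, 1.18 and 1.2, and its part in the Tm7sf2 values was not tested.

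Fdft1 read 41.3 and 51.9, 12.2 and 15.7, and 16.7 and 18.3 FPKM, with ratios of 1.26 (1.17 to 1.35), 1.28 (1.09 to 1.5) and 1.09 (0.968 to 1.23) and a log2 difference of 0.26 (SE 0.08, adjusted p = 0.371). It shares 18.3% of its exonic bases with Ctsb on the other strand, whose ratios were 1.08, 0.994 and 0.937. Without stated strandedness the reads of the shared bases cannot be told apart. Cyp51, the lanosterol demethylase, read 77.4 and 95.5, 52.3 and 57.9, and 54.3 and 58.3 FPKM. Its ratios of 1.23 (1.17 to 1.30), 1.11 (1.03 to 1.19) and 1.07 (1.01 to 1.14) all lay above 1 beyond counting error, with a log2 difference of 0.18 (SE 0.06, adjusted p = 0.436).

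Sc5d, the lathosterol desaturase, read 78.5 and 87.6, 33.5 and 40.7, and 45.6 and 51.3 FPKM. Its ratios were 1.12 (1.04 to 1.2), 1.21 (1.07 to 1.37) and 1.12 (1.03 to 1.23), with a log2 difference of 0.20 (SE 0.06, adjusted p = 0.373). Nsdhl and Ebp were higher by smaller amounts, with log2 differences of 0.14 and 0.06. With the correction for GC content and length that of Ebp was 0.02, while that of Sc5d rose from 0.20 to 0.25. Sqle, Lss and Dhcr7 exceeded vehicle beyond counting error in 2838c3 alone, at ratios of 1.16, 1.18 and 1.27, and the other lines gave 0.962 to 1.04. Hsd17b7 had ratios of 1.1, 1.1 and 0.904, all with intervals that spanned 1. Fdps and Msmo1 were above 1 in 2838c3 (1.17 and 1.16) and 6419c5 (1.16 and 1.11) and below 1 in 6499c4 (both 0.916).

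**Figure D4:**
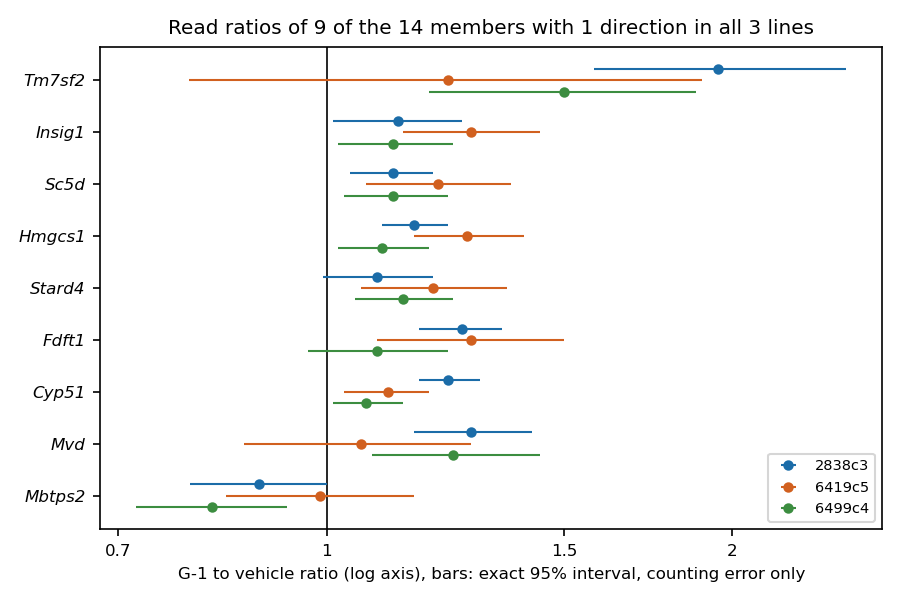
Ratio of G-1 to vehicle from recovered reads on a log axis for 8 of the 13 genes that were higher in all 3 lines, and for Mbtps2, which was lower in all 3, with exact 95% intervals that cover counting error only. Insig1, Sc5d, Hmgcs1 and Cyp51 lie above 1 with their whole interval in each line, and Tm7sf2 has the widest intervals. The 8 genes were picked by their smallest difference over the lines, which favours such intervals. The share of all genes with such intervals was not counted.

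In the control genes the median difference was 0.09, with Insig1, Srebf2 and Scap higher in all 3 lines, Mbtps2 lower and Insig2 and Mbtps1 of mixed sign. Over all genes tested, 15.4% were higher and 17.5% lower in all 3 lines. Insig1 (chr5:28071363-28078662, plus strand), itself a target of SREBP2 and a brake on it, stood at 25.5 and 28.7 FPKM in 2838c3, at 29.8 and 38.2 in 6419c5 and at 34.3 and 38.4 in 6499c4. The ratios were 1.13 (1.01 to 1.26), 1.28 (1.14 to 1.44) and 1.12 (1.02 to 1.24), and the log2 difference was 0.22 (SE 0.07, adjusted p = 0.384). Insig2 had ratios of 0.931 (0.78 to 1.11), 1.14 (0.943 to 1.38) and 0.885 (0.752 to 1.04), each spanning 1.

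Srebf2 read 113 and 138, 74.6 and 80.4, and 82.1 and 84.9 FPKM, with ratios of 1.23 (1.18 to 1.28), 1.08 (1.02 to 1.14) and 1.03 (0.985 to 1.09) and a log2 difference of 0.15 (SE 0.07, adjusted p = 0.511). Scap, its escort, had ratios of 1.21, 1.03 and 1.13 (log2 difference 0.16, SE 0.08, adjusted p = 0.536). The site-1 protease gene Mbtps1 had 0.986, 0.944 and 1.13. Mbtps2, the site-2 protease, read 14.9 and 13.2, 10.6 and 10.5, and 12.9 and 10.6 FPKM, with ratios of 0.891, 0.989 and 0.822 and a log2 difference of -0.14 (SE 0.09, adjusted p = 0.612). That difference was -0.08 with the correction for GC content and length and -0.09 without 6499c4. Mbtps2 shares 28.4% of its exonic bases with Yy2 on the same strand. Yy2 had ratios of 0.682, 1.07 and 0.586, and its part in the Mbtps2 values was not tested.

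Stard4 read 34.8 and 37.9, 25.0 and 30, and 40.3 and 46.0 FPKM, with ratios of 1.09 (0.994 to 1.2), 1.2 (1.06 to 1.36) and 1.14 (1.05 to 1.24) and a log2 difference of 0.19 (SE 0.06, adjusted p = 0.424). Soat1 had 0.887 (0.828 to 0.951) in 2838c3 and 1.00 in both other lines (log2 difference -0.05, SE 0.07, adjusted p = 0.826). The interval of Stard4 lay above 1 in 6419c5 and 6499c4 and spanned 1 in 2838c3, and that of Soat1 lay above 1 in no line.

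The 5 further lists around the pathway gave 0 genes called under G-1 in limma. Among 14 other genes known as SREBP targets, 5 were higher in all 3 lines (15.4% of all genes tested), the median difference was 0.06 (all genes, -0.01), and 3 had an unadjusted p under 0.05 (10.1% of all genes). The greatest was Scd2, a stearoyl-CoA desaturase, at 489 and 624 FPKM in 2838c3, at 229 and 327 in 6419c5 and at 233 and 291 in 6499c4 (log2 difference 0.39, SE 0.06, adjusted p = 0.206). Srebf1, which encodes the fatty acid-directed relative of SREBP2, read 40.5 and 56.6, 52.8 and 62.9, and 56.9 and 72.9 FPKM (0.36, SE 0.07, adjusted p = 0.236). Both exceeded every sterol gene except Tm7sf2 in the size of the difference. Lpin1 had 0.25 (SE 0.14, adjusted p = 0.576).

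The next lists stand beside 15.4% of all genes tested higher and 17.5% lower in all lines. Of 12 genes of sterol uptake and transport between organelles, 3 were higher in all lines, and the lysosomal carrier Npc2 was the greatest (0.16, SE 0.06, adjusted p = 0.477). Of 10 genes for sterol-regulated degradation in the endoplasmic reticulum, 2 were higher and 1 was lower in all lines, with a median of -0.00. Of 12 genes that use isoprenoids for dolichol, ubiquinone or prenylation, 0 were higher and 1 was lower, with a median of -0.04. Of the 4 electron-transfer proteins and partners found by symbol, 1 was higher, with a median of 0.02.

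Between lines, the surrounding genes did not all follow the enzymes. Cyb5b, the cytochrome b5 of the outer mitochondrial membrane, read 261 and 263 FPKM in 2838c3 against 135 and 137 in 6419c5 (log2 difference -0.94, SE 0.06, adjusted p = 4.78e-05) and 117 and 116 in 6499c4 (-1.17, SE 0.06, adjusted p = 1.15e-05). Por, which passes electrons to Cyp51 and Sqle, ran the other way, at 49.3 and 51.6, 87.4 and 87.8, and 119 and 110 FPKM (0.79 and 1.17, adjusted p = 0.000173 and 2.19e-05). Fads2, a fatty acid desaturase, was lower in both 6419c5 (-1.25, SE 0.09, adjusted p = 5.88e-05) and 6499c4 (-1.17, SE 0.09, adjusted p = 5.19e-05) than in 2838c3. Of the 14 other SREBP targets, 8 were lower in 6419c5 and 7 in 6499c4, against 2 higher in each, where 25.3% and 28.9% of all genes tested were lower and 26.2% and 26.6% higher.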

How the data were processed

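Messenger RNA was measured in 6 libraries, 1 per line and treatment. The deposited FPKM values (a scaled read number per kilobase of gene length) came as 1 table, and the unit is the one in the table's name, set by the authors. The submitters' processing notes list STAR and DESeq2 without a role or version. Genome build, annotation, strandedness and the counting of reads are likewise not given in the sources used here. The FPKM of a gene move in equal steps, which gave whole reads for 15712 of 15712 genes above 0 (within 0.01 reads). The library scale in the FPKM was inversely proportional to median-of-ratios size factors, while read totals deviated from such a relation by up to 10.2%.

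limma 3.58.1 in R 4.3.3 was fitted to log2(FPKM + 1) of 10748 genes whose mean reached 1 FPKM, in 1 model of line and treatment over the 6 libraries, with a variance trend and Benjamini-Hochberg adjustment over all genes (2 residual and 5.35 prior degrees of freedom). Fold changes on this scale understate those of low genes. The line, given in the labels, pairs the libraries of a line: their deviations correlated at 0.906, 0.871 and 0.882. As the labels name no separate cultures, p-values measure only the spread between these libraries. Read ratios carry exact (Clopper-Pearson) 95% intervals that cover counting error only. Per-line counts used a fold of 1.2. Alternatives were the pseudocount (0.1), the level filter (none or 5 FPKM), quantile or column-total scaling, no variance trend, limma-voom on reads, no block, leaving out libraries, folds of 1.1 and 1.5, and, chosen after seeing the data, a correction for GC content and length (values for 99.5% of genes). The model was tested on simulated data. The differences planted there were larger than those of the members under G-1, so differences of the members' size were not covered.

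All 27 members are named. Values in every library are given for up to 8 members per direction with 1 sign in all lines under G-1, ranked by their smallest difference, and for up to 4 per direction and pair of lines. From each of the 5 other lists up to 3 genes per comparison could be named. The members and lists were chosen with earlier results of these data known.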

Additional observations from a re-analysis of the deposited data

Results flagged for a closer look

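Fdps and Msmo1 had ratios of G-1 to vehicle on opposite sides of 1 in different lines, with counting intervals that did not include 1. For Fdps the ratio was 1.17 in 2838c3 (exact 95% interval 1.12 to 1.23), 1.16 in 6419c5 (1.07 to 1.26) and 0.916 in 6499c4 (0.843 to 0.996). For Msmo1 it was 1.16 in 2838c3 (1.12 to 1.21), 1.11 in 6419c5 (1.03 to 1.2) and 0.916 in 6499c4 (0.851 to 0.987). The intervals cover counting error only, and with 1 library per line and treatment the difference between lines was not tested. Such intervals narrow as reads rise, and these members had the highest mean FPKM. The share of all genes tested with intervals opposed in this way was not counted.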

How the results depend on the processing

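Under G-1 the members' median stayed between 0.12 and 0.15 over the pseudocounts, filters, scalings, limma-voom and the GC and length correction, none of which moved the median of all genes by over 0.1, and between 0.05 and 0.19 when a line was left out. Without the replicate block it was 0.14, again with 0 members called, and the block ended no call. With limma-voom 1 member was called higher and 0 lower, and the other alternatives called 0 each way. Members higher in all lines numbered 10 with column-total scaling, 11 with quantile scaling, 12 with the GC and length correction, and 14 to 20 when a line was left out. Members lower in all lines numbered 3 with column-total scaling and 1 to 3 when a line was left out, where fewer lines had to match. At a fold of 1.1, the members past it in 2838c3, 6419c5 and 6499c4 were 20, 14 and 9 higher and 3, 1 and 5 lower. At 1.5 they were 1, 1 and 0 higher and 0, 0 and 0 lower. The shares of all genes past these folds were not counted, so these counts have no background to be read against. Between 6419c5 and 2838c3, members called higher were 1 without the variance trend or the treatment covariate and 0 to 2 when a library was left out. Between 6499c4 and 6419c5, those called lower were 3 to 6. Between 6499c4 and 2838c3, 2 or 3 members were called higher and 16 to 19 lower over all alternatives run. The cause was not tested. Of the values of single genes under an alternative, 403 kept their direction and side of the threshold, 19 lost their call, 1 gained it (Tm7sf2) and 0 reversed. The genes in this tally were picked from the same data, by a shared sign under G-1 or by passing the threshold between lines. That choice favours a kept direction. A gene with 1 sign in all 3 lines cannot reverse when a line is left out. Depth limits genes such as Tm7sf2 in 6419c5, with 46 and 43 reads.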

Other observations

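Of the genes that carry cholesterol between organelles, Stard3 was higher in 6499c4 than in 2838c3 (log2 difference 1.54, SE 0.13, adjusted p = 6.62e-05 by limma) and than in 6419c5 (1.05, SE 0.13, adjusted p = 0.000539), and Npc1 was lower in 6499c4 than in 2838c3 (-0.74, SE 0.09, adjusted p = 0.000339). Vldlr, a lipoprotein receptor, was higher in 6499c4 than in 6419c5 (1.45, SE 0.18, adjusted p = 0.000674), at 4.80 and 4.56 FPKM against 0.775 and 1.44. Erlin1, of the endoplasmic reticulum degradation machinery, was lower in 6499c4 than in 2838c3 (-1.46, SE 0.10, adjusted p = 2.41e-05), and Icmt, which methylates prenylated proteins, was lower in 6499c4 than in 2838c3 (-0.91, SE 0.11, adjusted p = 0.000367) and than in 6419c5 (-1.08, SE 0.11, adjusted p = 0.000255).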
